A study of Mus musculus with 6 samples.

Results

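Fabp3, Fabp4, Fabp5, Slc27a1, Slc27a2, Slc27a4, Acsl1, Acsl3, Acsl4 and Acsl5 were followed as 10 of the 55401 genes counted in subcutaneous white adipose tissue (scWAT). They were chosen by symbol as genes that bind fatty acids in the cytosol, move them into the cell or activate them to acyl-CoA. Total RNA was sequenced from scWAT of 3 WT mice and 3 YT-AKO mice. All mice were male and 8 weeks old, and they were housed at room temperature. YT-AKO mice had the genotype Yapfl/fl/Tazfl/fl;AdipoqCre, in which loxP sites flank parts of both Yap and Taz and Cre recombinase comes from the promoter of Adipoq, a gene of mature adipocytes and not of the other cells of the tissue. The labels call the controls WT, while the methods of the study name them YT-FF, mice that carry the floxed alleles of Yap and Taz without Cre. The comparison asked how the RNA of these genes differed in the fat depot after deletion of both transcriptional coactivators in adipocytes.

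Fatty acids that reach an adipocyte cross the plasma membrane with the help of membrane proteins, are carried through the cytosol by small fatty acid binding proteins and become metabolically active only after a synthetase joins them to coenzyme A. The acyl-CoA then enters triglyceride, phospholipid or, through the carnitine shuttle, the mitochondrion. White adipocytes store most of it, whereas thermogenic brown and beige adipocytes burn fatty acids in their mitochondria.

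The 6 libraries held between 17740987 and 21838493 counted fragments. The targeted genes did not move together. Yap1, which encodes YAP, was at 64.2 ± 6.33 CPM (counts relative to the library total after TMM scaling, which corrects for composition; SD, n = 3) in WT and at 32.6 ± 4.52 CPM (SD, n = 3) in YT-AKO. Wwtr1, which encodes TAZ, was at 84.0 ± 12.7 CPM in WT and at 156 ± 21.5 CPM in YT-AKO (SD, n = 3 each), against the direction of its label. In the edgeR test used below, Yap1 was called lower and Wwtr1 higher at an adjusted p under 0.05. With library totals alone Wwtr1 was not called. Counts summed over all exons of a gene do not show the loss of a single exon, and the tissue holds cells without Cre. The cause of the higher Wwtr1 RNA was not tested, and the group is called the libraries labelled YT-AKO. By immunoblot, the study reported a clear decrease of YAP and TAZ protein in scWAT of YT-AKO mice. The adipocyte markers Adipoq and Plin1 were at 1460 CPM or more in all 6 libraries. Library 2 of YT-AKO stood apart with a TMM factor of 0.778, against 0.954 to 1.16 in the others, and longer genes were lower in the libraries labelled YT-AKO (Spearman rho between log2 fold change and exon length, -0.376 over the 16807 genes tested, and -0.283 without that library, genes not being independent replicates).

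The sequence just before the start of transcription is shown for Fabp3, which had the largest difference of the 10 genes, for Slc27a4, which kept its call in the most alternatives, and for Acsl1, which was not called and holds the core motif of TEAD, the DNA-binding partner of YAP and TAZ. The letters are from RefSeq on GRCm38.p6, 5′ to 3′ on the plus strand, and capitals mark that motif. The windows are chr4:130308488-130308594 for Fabp3, chr2:29802384-29802633 for Slc27a4 and chr8:46470787-46471036 for Acsl1.
Fabp3: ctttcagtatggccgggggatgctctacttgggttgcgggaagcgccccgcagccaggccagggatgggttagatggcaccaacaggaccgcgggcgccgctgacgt
Slc27a4: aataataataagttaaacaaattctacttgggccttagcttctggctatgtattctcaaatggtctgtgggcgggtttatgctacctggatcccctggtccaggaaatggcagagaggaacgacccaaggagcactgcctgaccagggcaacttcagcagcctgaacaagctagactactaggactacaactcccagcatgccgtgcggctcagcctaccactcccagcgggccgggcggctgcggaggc
Acsl1: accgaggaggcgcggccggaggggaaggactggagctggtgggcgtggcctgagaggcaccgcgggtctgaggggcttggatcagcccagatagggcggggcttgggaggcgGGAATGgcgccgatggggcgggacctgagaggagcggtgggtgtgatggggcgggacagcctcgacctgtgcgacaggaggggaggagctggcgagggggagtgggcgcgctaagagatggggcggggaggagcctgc
The Fabp3 window stops at the gene start of GENCODE, 143 bases before the RefSeq start. In the 250 bases upstream of each RefSeq start, which were available for 8 of the 10 genes in 11 windows, CATTCC, the TEAD core, was found on either strand in 2 windows, 1 of Acsl1 and 1 of Slc27a1, and in 12.6% of all 32851 windows. AGGTCA, the core of many nuclear receptor sites, was found in 1 window, that of Slc27a2, and in 14.0% of all windows. The direct repeat 1 motif of such receptors was in none of the 11 windows and in 0.338% of all windows. TTGCNNAA, the C/EBP palindrome, was in none of the 11 and in 9.56% of all. Fabp4 and Fabp5 were not searched.

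All 10 genes passed the filter on low counts and were tested with edgeR's quasi-likelihood test and Benjamini-Hochberg adjustment over the 16807 genes tested. Fabp3, Fabp4, Fabp5, Slc27a4 and Acsl5 were higher in YT-AKO libraries at an adjusted p under 0.05, and no member was lower. These 5 of 10 members (50%) stood beside 12.6% of all tested genes called higher and 9.01% called lower. At an unadjusted p under 0.05, 6 members were higher and 0 lower, beside 6853 of the 16807 tested genes in either direction. The median log2 fold change of the 10 was 0.69, against -0.02 over all tested genes. At an adjusted p under 0.01 with a log2 fold change beyond 1, none of the 10 was called by edgeR, beside 0.0892% of all genes higher and 0.0357% lower, while DESeq2 called 3 of them higher, beside 7.58% of its tested genes higher and 3.79% lower. Without WT library 1 or without WT library 2, none of the 10 genes was called. In either edgeR fit 0 of all genes were called higher. In each, 6 of the 10 had an unadjusted p under 0.05. The share of all genes under it was not counted there, so no reading is drawn from this number. In bulk tissue, more RNA per cell and more cells of the type that expresses a gene cannot be told apart.

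**Figure D1:**
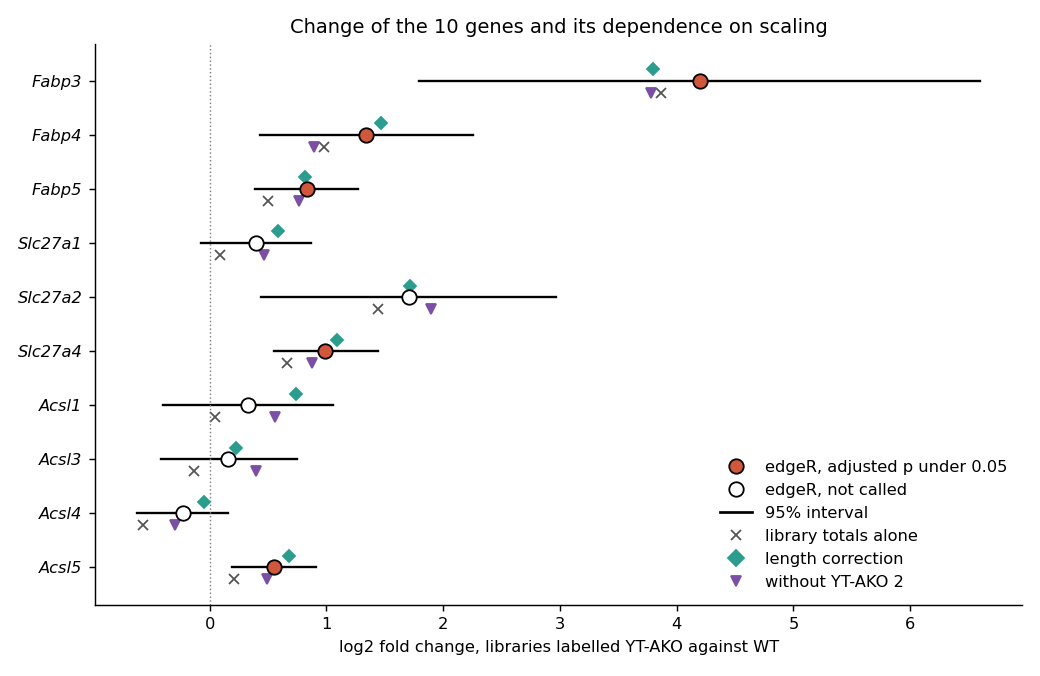
Log2 fold change of each gene on the horizontal axis, libraries labelled YT-AKO against WT. Circles are the edgeR values with 95% intervals as bars, filled where the adjusted p was under 0.05, and the other marks are the same value scaled by library totals alone, after a correction for gene length or without YT-AKO library 2. The circles run from -0.23 for Acsl4 to 4.20 for Fabp3, and Acsl3 is the gene whose mark changes side, at -0.13 with library totals.

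Fabp3 encodes heart-type fatty acid binding protein, which is abundant in tissues that oxidise fatty acids, brown fat among them. It lies at chr4:130308595-130315463 on the plus strand. Its level was 2.13, 1.27 and 19.1 CPM in WT libraries 1, 2 and 3, from 50, 29 and 372 counts. The libraries labelled YT-AKO had 54.1, 207 and 148 CPM, from 932, 3513 and 2509 counts. The groups did not overlap, WT library 3 lay far above the other WT libraries, and library 1 was the lowest of YT-AKO. The log2 fold change was 4.20 ± 1.04 (SE; 18.3-fold, adjusted p = 0.0315 by edgeR with Benjamini-Hochberg adjustment), the 9th highest of the 16807 genes tested. Without WT library 3 it was 6.32, and without YT-AKO library 3 it was 4.15 with an adjusted p of 0.0514 by edgeR. Fabp3 is the shortest of the 10 genes with 823 exon bases, of which 19.56% overlap Gm10570 or Zcchc17, and 37.3% of its 50-base stretches also occur in other genes, 29.2% in the pseudogene Fabp3-ps1, so its count is uncertain.

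Brown and beige fat markers moved with Fabp3. The summed level of the 9 markers ran from 408 to 500 CPM in WT and from 2080 to 3997 CPM in the libraries labelled YT-AKO, with 7 of the 9 called higher by edgeR and none at 0 in any library. YT-AKO library 2 had the highest sum and also the highest Fabp3. Their part in the Fabp3 difference was not tested. Skeletal muscle also expresses Fabp3, and the sum of 10 muscle markers was 428, 116 and 166 CPM in WT and 3150, 485 and 210 CPM in YT-AKO. The library with the most muscle marker RNA, YT-AKO 1, had the lowest Fabp3 of its group, and without it the log2 fold change of Fabp3 was 4.59 (edgeR, adjusted p = 0.0309). YT-AKO library 2, whose muscle sum of 485 CPM was also above every WT library, had the highest Fabp3. The slow-fibre gene Myh7 was at 0 in some library, and 1 of the 8 muscle markers tested, Acta1, was called higher. The median log2 fold change of the 8 was 2.39, and -0.66 without YT-AKO library 1. The part of muscle RNA in the Fabp3 difference was not tested.

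Fabp4, the adipocyte fatty acid binding protein also known as aP2, was the most abundant of the 10 genes. It lies on the minus strand at chr3:10204088-10208576. Its level was 4338, 4066 and 7188 CPM in WT and 9145, 20200 and 10189 CPM in the libraries labelled YT-AKO. Each YT-AKO library was above each WT library, with WT library 3 the highest of its group and YT-AKO library 2 about level with the sum of the other YT-AKO libraries. Its log2 fold change was 1.34 ± 0.395 (SE; 2.54-fold, adjusted p = 0.0475 by edgeR with Benjamini-Hochberg adjustment). It was 0.89 without YT-AKO library 2 (edgeR, adjusted p = 0.0276), and the call was lost without WT library 3 (adjusted p = 0.0601) or YT-AKO library 3 (adjusted p = 0.0574). It was kept in 9 of 18 alternatives, and was also lost with library totals alone (0.98, adjusted p = 0.0514), with the length correction (adjusted p = 0.0542) and with at least 10 counts in every library (adjusted p = 0.0517). Fabp4 RNA made up 0.497%, 0.470% and 0.766% of all counted fragments in WT and 0.872%, 1.57% and 0.973% in YT-AKO, which placed it 8th, 8th and 5th by counts in the WT libraries and 6th, 2nd and 5th in YT-AKO. Counted over all exons, its length is 4489 bases, while its principal transcript has 896. By RT-qPCR, the study reported that loss of Yap and Taz left adipocyte identity genes in scWAT unchanged. Its primer list holds Ap2, but its text does not name the genes of that result.

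The summed level of 8 adipocyte markers, most of it from Cfd, which encodes adipsin, ran from 13575 to 16421 CPM in WT and from 30892 to 63792 CPM in the libraries labelled YT-AKO, highest in library 2, and 3 of the 8, Lipe, Pnpla2 and Cfd, were called higher. Of the other 5, 1 had a log2 fold change below 0, and Adipoq had a log2 fold change of 0.43 (edgeR, adjusted p = 0.176). No adipocyte marker was at 0 in any library. The part of adipocyte share in the Fabp4 difference was not tested.

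Fabp5, the epidermal-type binding protein that adipocytes and macrophages also express, had 92.9, 102 and 136 CPM in WT. The libraries labelled YT-AKO had 198, 212 and 179 CPM. The ranges were separate and the YT-AKO libraries lay close together. Fabp5 differed by 0.83 ± 0.190 in log2 (SE; 1.78-fold, adjusted p = 0.0270 by edgeR with Benjamini-Hochberg adjustment), and the call held without each of the libraries other than WT 1 and WT 2 (adjusted p of 0.129 and 0.135). With library totals alone it was 0.50 and not called (edgeR, adjusted p = 0.0741). Fabp5 lies at chr3:10012548-10016607, close to Fabp4 in a row of binding protein genes that also holds Pmp2, Fabp9 and Fabp12. Fabp9 reached at most 0.353 CPM, Fabp12 at most 0.883 CPM and Pmp2 at most 0.154 CPM in a library. Macrophage markers, summed over 8 genes, ran from 1062 to 1246 CPM in WT and from 1410 to 1713 CPM in YT-AKO, with Fcgr1 alone called higher, and epithelial and keratinocyte markers from 6.38 to 8.16 CPM and from 10.6 to 17.3 CPM, with Krt10 alone called and Krt5 at 0 in all 6 libraries. Whether either source bears on Fabp5 was not tested.

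**Figure D2:**
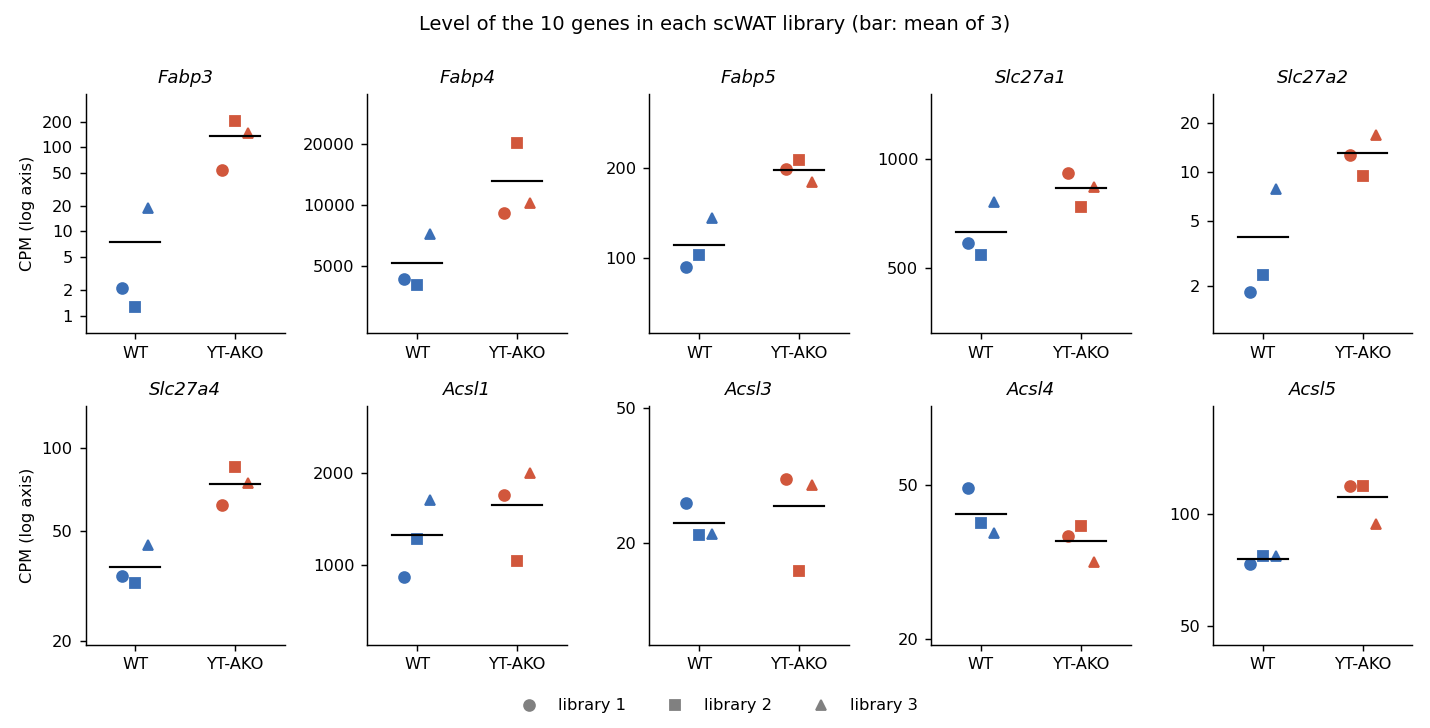
Level of each gene in CPM on log axes, a panel per gene, with WT libraries on the left and libraries labelled YT-AKO on the right. Symbols are the 3 libraries of a group and bars their mean. The groups are apart for Fabp3, Fabp4, Fabp5, Slc27a2, Slc27a4 and Acsl5, and they overlap for Slc27a1, Acsl1, Acsl3 and Acsl4.

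Slc27a1 encodes FATP1, an insulin-responsive fatty acid transport protein of adipocytes and muscle with acyl-CoA synthetase activity of its own. It lies at chr8:71568882-71587302. WT libraries had 588, 545 and 759 CPM, and libraries labelled YT-AKO had 914, 739 and 838 CPM. The groups overlapped at WT library 3 and YT-AKO library 2. The log2 fold change of 0.40 ± 0.203 (SE; 95% interval -0.07 to 0.87) did not pass the test (edgeR, adjusted p = 0.179). YT-AKO library 2 had the lowest level of its group, and without it DESeq2 gave 0.48 (adjusted p = 0.0180) while edgeR gave 0.47 (adjusted p = 0.0589).

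Slc27a2 encodes FATP2, a very long-chain acyl-CoA synthetase best known from liver and kidney. It was the least abundant of the 10 genes, at 1.83, 2.33 and 7.82 CPM in WT from 43, 53 and 152 counts. The libraries labelled YT-AKO had 12.7, 9.48 and 16.7 CPM from 219, 161 and 283 counts. All YT-AKO libraries were above all WT libraries, and WT library 3 was again above the other WT libraries. The log2 fold change of 1.71 ± 0.546 (SE; 3.27-fold) missed the threshold (edgeR, adjusted p = 0.0583), although DESeq2 (adjusted p = 0.00603) and limma-voom (adjusted p = 0.0292) called it. Without WT library 3 edgeR gave 2.64 with an adjusted p of 0.0380, and without YT-AKO library 2 it gave 1.90 with 0.0303. The gene spans chr2:126552407-126588243, and 9.8% of its 50-base stretches also occur in Gm26697.

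Slc27a4 encodes FATP4, a long-chain acyl-CoA synthetase of the endoplasmic reticulum. It lies at chr2:29802634-29817522. Its level was 34.4, 32.6 and 44.8 CPM in WT. In the libraries labelled YT-AKO it was 62.4, 85.3 and 75.1 CPM. In CPM no YT-AKO library came near the highest WT library, while in TPM, the level per length used below, the groups overlapped. In log2 the difference was 0.99 ± 0.193 (SE; 1.99-fold), and its adjusted p of 0.0204 (edgeR with Benjamini-Hochberg adjustment) was the smallest among the 10 genes. It was under 0.05 in 14 of 18 alternatives, including library totals alone (0.66, adjusted p = 0.0358), and above it without WT library 1 (0.115), without WT library 2 (0.119) and in both fits with the replicate number as a term.

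Acsl1 encodes the main long-chain acyl-CoA synthetase of adipocytes, which feeds both storage and oxidation. The gene spans chr8:46471037-46536051. Its CPM was 914, 1221 and 1633 in WT and 1692, 1035 and 2005 in the libraries labelled YT-AKO. The values overlapped widely, with YT-AKO library 2 below 2 of the 3 WT libraries. The log2 fold change was 0.33 ± 0.315 (SE; 95% interval -0.40 to 1.06), and it did not pass the test (edgeR, adjusted p = 0.457). Without YT-AKO library 2 it was 0.56 and passed with DESeq2 (adjusted p = 0.0317) but not with edgeR (adjusted p = 0.0965). With 10483 exon bases Acsl1 is the longest of the 10 genes, and after the length correction its log2 fold change was 0.74 (edgeR, adjusted p = 0.107).

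Acsl3, an acyl-CoA synthetase of the endoplasmic reticulum and lipid droplets, had 26.3, 21.2 and 21.3 CPM in WT. It had 30.8, 16.6 and 29.7 CPM in the libraries labelled YT-AKO, where library 2 was the lowest of all 6. Its log2 fold change was 0.16 ± 0.254 (SE; 95% interval -0.42 to 0.75) and did not pass the test (edgeR, adjusted p = 0.650). Scaled by library totals alone, which put the median of all genes at -0.34, it was -0.13. Without YT-AKO library 2 Acsl3 was at 0.40 (edgeR, adjusted p = 0.0627), and at 0.45 with the length correction as well (adjusted p = 0.0476), while without YT-AKO library 1 it was at 0.02.

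Acsl4, the isoform that prefers arachidonic acid, had 48.9, 39.8 and 37.4 CPM in WT and 36.8, 39.0 and 31.6 CPM in the libraries labelled YT-AKO. It was the only member with a log2 fold change below 0, at -0.23 ± 0.169 (SE; 95% interval -0.62 to 0.16; edgeR, adjusted p = 0.331), and its groups overlapped. With library totals alone it was -0.57 (edgeR, adjusted p = 0.0590). Acsl4 lies on chrX:142317993-142390535.

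Acsl5 encodes an acyl-CoA synthetase of mitochondria and endoplasmic reticulum. WT libraries had 73.3, 77.3 and 77.3 CPM, and libraries labelled YT-AKO had 119, 119 and 94.2 CPM. The WT values were nearly equal and all YT-AKO libraries were above them, library 3 by the least. Acsl5 differed in log2 by 0.55 ± 0.156 (SE; 1.46-fold, adjusted p = 0.0440 by edgeR with Benjamini-Hochberg adjustment). The call was lost without WT library 3 (adjusted p = 0.0967) or YT-AKO library 1 (adjusted p = 0.0852). It was also lost with library totals alone, at 0.21 (edgeR, adjusted p = 0.353). Acsl5 spans chr19:55251938-55297720, and 8.31% of its exon bases overlap Zdhhc6.

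CPM of the 3 libraries labelled YT-AKO lay above all 3 WT libraries for 6 of the 10 genes (Fabp3, Fabp4, Fabp5, Slc27a2, Slc27a4 and Acsl5), beside 25.7% of all tested genes, and below them for none, beside 25.8%. With 3 libraries a group, the exact two-sided permutation test cannot go below 0.1 for a single gene. WT library 3 was the highest of its group in 8 of the 10 genes, the exceptions being Acsl3 and Acsl4. YT-AKO library 2 was the highest of its group in 6 genes (Fabp3, Fabp4, Fabp5, Slc27a4, Acsl4 and Acsl5) and the lowest in the other 4. The 10 genes together took up 0.702%, 0.706% and 1.06% of the counted fragments in WT and 1.17%, 1.76% and 1.3% in the libraries labelled YT-AKO.

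**Figure D3:**
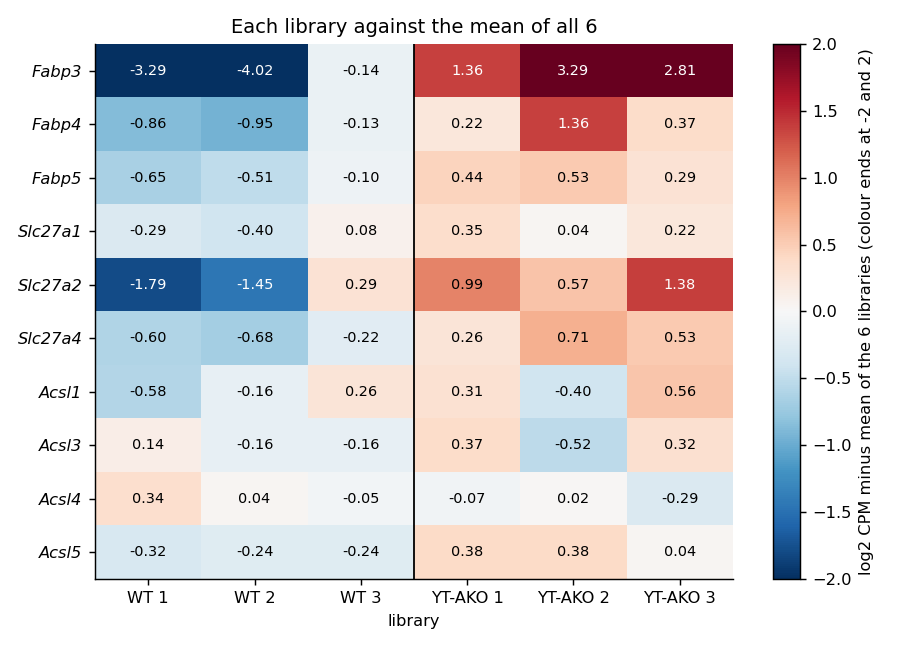
Deviation of log2 CPM from the mean of the 6 libraries for each gene, with the value in each cell and WT to the left of the line. For Fabp3 the values run from -4.02 in WT 2 to 3.29 in YT-AKO 2, WT 3 lies between the other WT libraries and YT-AKO for Fabp3, Fabp4, Fabp5, Slc27a2 and Slc27a4, and YT-AKO 2 is below 0 for Acsl1 and Acsl3.

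Levels were compared between genes per length, in TPM, which are counts divided by summed exon length and scaled to the same total in each library. In WT the order of the mean TPM was Fabp4 at 4361 ± 1230, Acsl1 at 453 ± 114, Slc27a1 at 409 ± 53.6, Fabp5 at 117 ± 19.2 and Acsl5 at 59.4 ± 2.97 (SD, n = 3 each). Fabp3 at 33.3 ± 43.9, Slc27a4 at 32.0 ± 4.12, Acsl4 at 29.6 ± 4.93, Acsl3 at 20 ± 2.85 and Slc27a2 at 3.95 ± 3.11 TPM followed (SD, n = 3 each). Among WT neighbours the ranges overlapped between Acsl1 and Slc27a1 and along the run from Acsl5 through Fabp3 and Slc27a4 to Acsl4. In the libraries labelled YT-AKO, Fabp3 reached 372 ± 165 TPM (SD, n = 3) and overlapped with Acsl1 at 382 ± 184 and Slc27a1 at 350 ± 113 TPM. With the length of the principal transcript instead, Fabp3 had a mean of 251 TPM in YT-AKO, below Fabp5 at 324 TPM.

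The direction of several differences depended on the unit. In log2 TPM the median of all tested genes was shifted by -0.71 in the libraries labelled YT-AKO. On that scale the difference was 4.30 for Fabp3, 1.26 for Slc27a2, 0.62 for Fabp4, 0.32 for Slc27a4 and 0.16 for Fabp5. It was below 0 for Acsl5 (-0.14), Slc27a1 (-0.28), Acsl1 (-0.37) and Acsl3 (-0.56), all of which were above 0 in the edgeR fit, and for Acsl4 (-0.90). Fabp3 was the member whose TPM values lay above WT in every library, and Acsl4 the member whose values lay below. The share of all tested genes apart in TPM was not counted, and the Acsl4 groups overlapped in CPM. Relative to the median shift, the differences in log2 TPM were 5.0 for Fabp3, 0.57 for Acsl5, 0.43 for Slc27a1 and -0.19 for Acsl4.

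Shares within a family do not depend on library scaling. They can carry the length trend between the groups, since exon length differs within a family, with 823 bases for Fabp3 and 4489 for Fabp4. With the length correction the log2 fold change by edgeR was 3.80 for Fabp3 and 1.47 for Fabp4. No share was computed after that correction. Fabp4 made up 97.1%, 96.8% and 96.3% of the summed TPM of the 3 FABP genes in WT and 94.4%, 93.5% and 90.8% in the libraries labelled YT-AKO. Fabp3 made up 0.260%, 0.165% and 1.40% in WT and 3.05%, 5.23% and 7.20% in YT-AKO. Neither share overlapped between the groups (exact permutation test, two-sided, p = 0.1, the smallest possible). With principal transcript lengths the Fabp4 share differed by -0.485 percentage points in place of -3.83, and its groups overlapped. With those lengths the Fabp3 share was 0.0524%, 0.0333% and 0.284% in WT and 0.628%, 1.09% and 1.53% in YT-AKO, a difference of 0.961 points in place of 4.55, still without overlap.

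Slc27a1 was 92.4%, 92.1% and 91.4% of the SLC27A sum in WT and 89.9%, 85.3% and 87.0% in the libraries labelled YT-AKO. The Slc27a4 share was 7.15%, 7.27% and 7.14% in WT and 8.12%, 13% and 10.3% in YT-AKO, again without overlap (exact permutation test, two-sided, p = 0.1). The ratio of Slc27a1 to Slc27a4 was 12.9, 12.7 and 12.8 in WT, a narrow range, and 11.1, 6.55 and 8.44 in YT-AKO. Acsl1 held 79.9% ± 5.32 of the ACSL sum in WT and 80.0% ± 6.11 in YT-AKO (SD, n = 3 each), a difference far inside the spread between libraries. The ratio of Acsl5 to Acsl4 was 1.67, 2.16 and 2.30 in WT and 3.60, 3.40 and 3.31 in YT-AKO, so the groups were separate. Of 8 such ratios, 5 did not overlap between the groups, and some of these share a gene. No such share was computed for ratios of other genes, while 25.7% of single tested genes lay wholly above WT and 25.8% below. The exact permutation p cannot go below 0.1 with 3 libraries a group. No ratio could therefore pass at 0.05, before or after adjustment (exact permutation tests, smallest p adjusted over the 8 = 0.16).

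**Figure D4:**
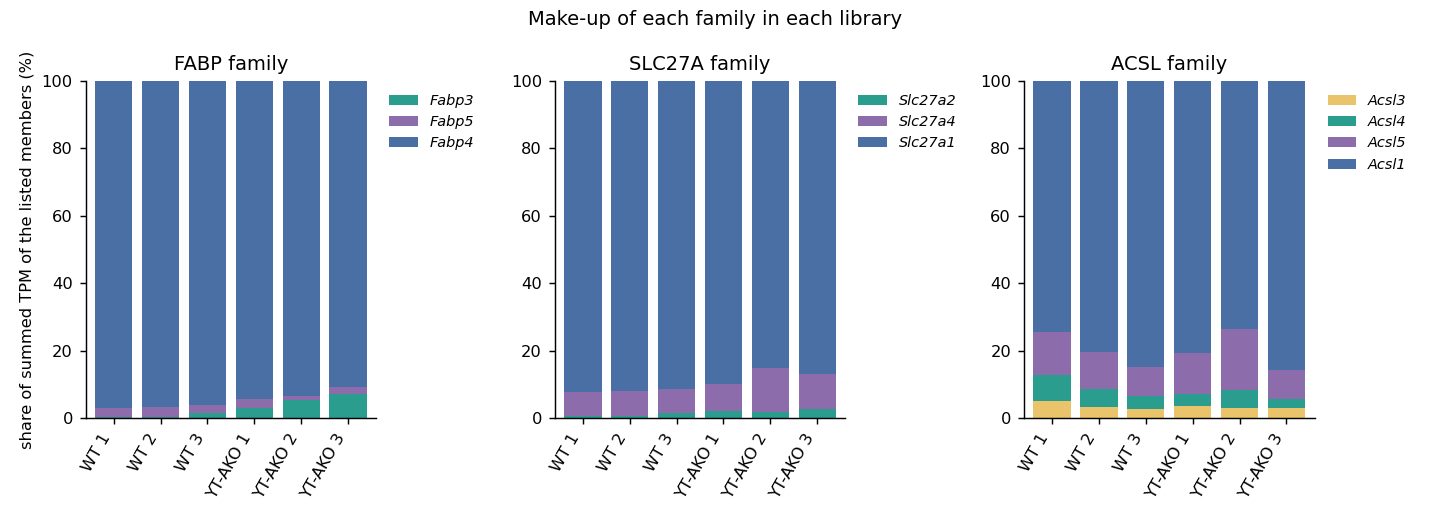
Share of each gene in the summed TPM of the listed members of its family, in percent, with a stacked bar per library. Fabp4 exceeds 90% of the FABP sum in every library, and the Fabp3 part rises to 7.20% in YT-AKO 3. Slc27a1 is the largest part of its family, and the ACSL make-up overlaps between the groups.

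Around the 10 genes, 84 further genes of fatty acid handling were counted in 8 lists, of which 62 were tested. Of these, 17 (27.4%) were called higher in the libraries labelled YT-AKO and 0 lower by edgeR, beside 12.6% and 9.01% of all tested genes. At an unadjusted p under 0.05, 27 were higher and 4 lower, beside 6853 of the 16807 tested genes in either direction. DESeq2 called 3 lower (Acss3, Acsm5 and Cpt1a), beside 16.2% of all genes higher and 12.6% lower in its own fit. The median log2 fold change of the 62 genes by edgeR was 0.40 with 47 of 62 above 0, and 49.0% of all tested genes were above 0. The lists were chosen with earlier results of these data known, so the counts are a description.

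Uptake and acyl-CoA binding genes had 3 of 11 called higher and a median log2 fold change of 0.66. Gpihbp1, which anchors lipoprotein lipase on capillaries, rose by 1.25 in log2 (edgeR, adjusted p = 0.0487), Acbd6, an acyl-CoA binding protein, by 1.06 (adjusted p = 0.0456), and the third was the lipid carrier Scp2. Cd36, the main fatty acid translocase of adipocytes, had 1854, 2003 and 2647 CPM in WT and 2329, 1560 and 2773 CPM in YT-AKO. The Cd36 groups overlapped, and its log2 fold change was 0.03 ± 0.274 (SE; edgeR, adjusted p = 0.934).

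Among 12 other lipid-binding proteins, 10 had at most 15 counts in any library and were not tested. Of 3 other fatty acid transport proteins, Slc27a3 alone was tested, with a log2 fold change of 0.27 (edgeR, adjusted p = 0.516). Of 14 other acyl-CoA synthetases 9 were tested, with a median of 0.05 and 2 called higher. These were the mitochondrial enzymes Acsf3, which activates malonate, with a log2 fold change of 1.29 (edgeR, adjusted p = 0.0171), and Acss1, which activates acetate, with 0.79 (adjusted p = 0.0185). Below WT in every YT-AKO library were Acss3, at -1.23 (edgeR, adjusted p = 0.0651), and Acsm5, at -0.76 (adjusted p = 0.0679), and both were called lower by DESeq2 and with library totals. These genes and Cpt1a were chosen after their values were seen.

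Thioesterases, which release the fatty acid again, had 3 of 10 called higher with a median log2 fold change of 0.54, namely Acot1 with 2.44 (edgeR, adjusted p = 0.0283), Acot13 with 1.76 (adjusted p = 0.0146) and Acot7. Esterification genes had 4 of 13 called higher with a median of 0.52, led by the acyltransferases Gpat3 with 1.09 (edgeR, adjusted p = 0.0203) and Agpat2 with 0.99 (adjusted p = 0.0213), with Agpat3 and Dgat1 beside them. Carnitine shuttle genes had 3 of 8 called higher with a median of 0.13. They were the mitochondrial carnitine carrier Slc25a20 with 1.49 (edgeR, adjusted p = 0.0185), Cpt2, the inner membrane carnitine palmitoyltransferase, with 1.32 (adjusted p = 0.0171) and Crat. Cpt1a, the outer membrane enzyme of the liver type, had 57.0, 59.7 and 62.6 CPM in WT and 40.3, 24.1 and 45.4 CPM in YT-AKO, with a log2 fold change of -0.71 (edgeR, adjusted p = 0.0648), and it was called lower by DESeq2 and with library totals. Fatty acid sensing nuclear receptors had 1 of 8 called higher with a median of 0.16, Rxrb with 0.53 (edgeR, adjusted p = 0.0481). Pparg, the adipocyte regulator for which Fabp4 is a known target gene, had 175, 144 and 183 CPM in WT and 142, 159 and 314 CPM in YT-AKO, and its log2 fold change of 0.29 did not pass (edgeR, adjusted p = 0.496).

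**Figure D5:**
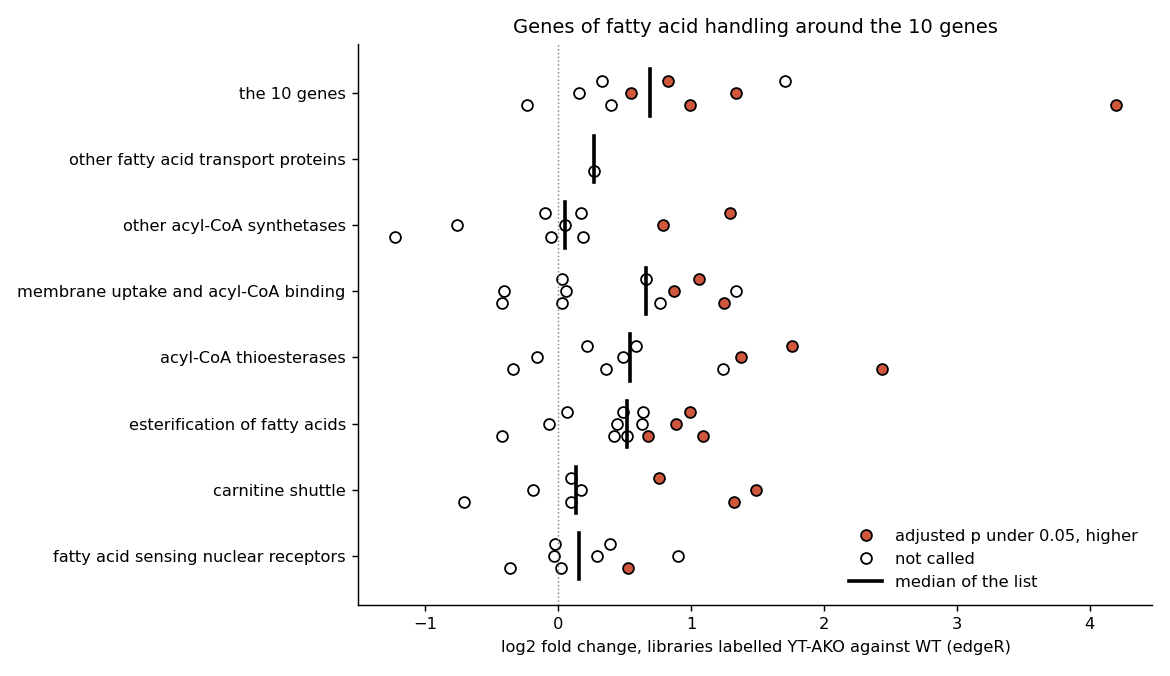
Log2 fold change of the tested genes, a line per list for the 10 genes and 7 of the lists, libraries labelled YT-AKO against WT by edgeR. Filled circles passed an adjusted p of 0.05, and the vertical bars are list medians. All filled circles lie above 0, and the list of other lipid-binding proteins is not drawn.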

How the data were processed

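RNA-seq counts of scWAT from 3 WT and 3 YT-AKO mice were used, grouped by the titles of the samples. The authors sequenced paired ends, mapped them to GRCm38 (mm10) with HISAT2 and counted fragments on exons, without regard to strand, with featureCounts 2.0.1 on a GENCODE annotation, leaving out fragments that fell on several genes, and the deposited values are raw counts per gene, without normalization. The replicates are separate mice per the methods of the study.

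Of 55401 gene identifiers, 55141 were matched to the GENCODE annotation used here for symbols, positions and exon overlaps, and 260 were not. The mitochondrial chromosome had 0 counts. Counts were tested in R 4.3.3 with edgeR 4.0.16 (TMM, filterByExpr with a minimum count of 10 and a minimum total of 15, quasi-likelihood test, Benjamini-Hochberg adjustment), on 16807 genes, called at an adjusted p under 0.05. The biological coefficient of variation was 0.288. CPM used TMM factors and TPM summed exon lengths. Alternatives used DESeq2 1.42.0, limma 3.58.1 (voom), other scalings and filters, robust estimation, a length spline with 6 degrees of freedom, the replicate number as a block and each library left out. The tests were tried on simulated counts.

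Named genes are the 10 members, up to 2 called genes with the largest change in each direction of 8 lists (other lipid-binding proteins, other fatty acid transport proteins, other acyl-CoA synthetases, membrane uptake and acyl-CoA binding, acyl-CoA thioesterases, esterification, carnitine shuttle, nuclear receptors), Cd36, Pparg, Yap1 and Wwtr1, and the 2 genes most like each member. A result of the first list is not reported here. Others were named after their values were seen. The markers were 10 lists of cell types. The members and lists were chosen with earlier results of these data known. Fragments without molecular identifiers are not independent molecules.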

Additional observations from a re-analysis of the deposited data

How the results depend on the processing

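Each of the 10 genes kept the sign of its edgeR log2 fold change in 18 of 18 refits, except Acsl3, which was -0.13 with library totals alone. In TPM, added after the data were seen, the sign changed for Slc27a1 (-0.28), Acsl1 (-0.37), Acsl3 (-0.56) and Acsl5 (-0.14). The number of members called higher was 5. It was 2 with library totals alone, 0 at an adjusted p under 0.01 with a log2 fold change beyond 1, 9 with the length correction without YT-AKO library 2 (chosen after seeing the data), and 0 to 6 with a library left out. DESeq2 called 2880 genes higher and 2243 lower, edgeR 2122 and 1515, and library totals 1137 and 2820. The fit that called 9 members called 2609 of its 17350 tested genes higher and 1469 lower. Leaving out YT-AKO library 2 without that correction gave the 6 members, beside 2925 of 17350 genes higher and 2426 lower. Without WT library 1 edgeR called 0 genes, and without WT library 2 it called 2. The cause was not tested.

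Neither the labels nor the methods of the study say that the replicate numbers pair the mice. Deviations of same-numbered libraries correlated at 0.114, -0.111 and -0.0906, and those of different-numbered libraries at -0.13 to 0.149. With 3 libraries a group these values cannot decide whether there was pairing. With the replicate block 0 members and 0 pathway genes were called higher, and over all genes 24 were called higher and 9 lower. With the block and the length correction 0 members were called, and over all genes 59 higher and 22 lower.

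Pathway genes called higher numbered 17, 10 with library totals and 0 to 23 with a library left out. Those called lower numbered 0, 3 with DESeq2, 4 with library totals and 0 to 2 with a library left out. Over all genes, 6.77% were called higher with library totals and 0 to 16.9% with a library left out, where the highest share came without YT-AKO library 2. The shares of all genes called lower were 16.8% with library totals and 0 to 14.0% with a library left out. List medians below 0 arose with library totals for other fatty acid transport proteins (-0.02), other acyl-CoA synthetases (-0.26), carnitine shuttle (-0.17), nuclear receptors (-0.14), macrophages (-0.03), T cells (-0.31) and epithelium (-0.26). Other acyl-CoA synthetases were also at -0.04 with the block and -0.11 to 0.19 with a library left out, nuclear receptors at -0.11 to 0.33, muscle at -0.66 to 3.10, T cells at -0.34 to 0.27 and -0.15 with the length correction, epithelium at -0.20 with it, and endothelium, at -0.03, was at 0.15 with it and -0.11 to 0.05 with a library left out. The Acsl1 share difference of 0.0564 points was -0.0812 with principal transcript lengths and -2.78 to 3.29 with a library left out.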

Other observations

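The 2 genes closest to each member were found by the mean absolute difference of log2 CPM deviations over the 6 libraries, among 15176 genes with a mean of at least 1 CPM. For Fabp3 they were Ucp1, the uncoupling protein of thermogenic fat, at 0.668 and the secreted phospholipase Pla2g2e at 0.671. Ucp1 had 6.77, 3.69 and 9.82 CPM in WT and 144, 394 and 242 CPM in the libraries labelled YT-AKO. For Fabp4 they were the lysosomal protease Ctsd at 0.0519 and Lgals1 at 0.0631. For Fabp5 they were the mitochondrial membrane genes Chchd3 at 0.0430 and Mtx2 at 0.0531. Slc27a4 lay closest to Pccb, a subunit of propionyl-CoA carboxylase, at 0.0294, and to Prg4 at 0.0303. Slc27a1 lay closest to Cyp4b1 at 0.0390 and Gm19680 at 0.0395, and Slc27a2 to Tpi-rs11 at 0.211 and BC049762 at 0.283. For the synthetases the closest genes were Rab11b-ps2 (0.0628) and Gm14121 (0.0896) for Acsl1, Fbxw4 (0.0645) and Homer1 (0.0674) for Acsl3, Arid5a (0.0344) and Taf15 (0.0400) for Acsl4, and Uxs1 (0.0412) and Ptges3 (0.0450) for Acsl5. Among the members themselves the closest were Fabp5 and Slc27a4 at 0.155, and Slc27a1 and Acsl5 at 0.178. The points share their libraries and their depth.

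Markers of other cell types were also summed. B cell markers ran from 1136 to 1353 CPM in WT and from 664 to 993 CPM in the libraries labelled YT-AKO, with 4 of 7 called lower by edgeR. T cell markers ran from 413 to 644 CPM and from 367 to 858 CPM with 1 of 8 lower, endothelial markers from 731 to 800 CPM and from 661 to 1023 CPM with 1 of 8 lower, and Schwann cell markers from 492 to 556 CPM and from 412 to 493 CPM with 0 of 8 called. Fibroblast and progenitor markers ran from 3898 to 4889 CPM and from 4421 to 7274 CPM with 2 of 8 higher and 1 lower. Their part in the differences of the 10 genes was not tested.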
